A study of Mus musculus with 278 samples.

Results

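Polycomb and trithorax group genes encode the chromatin complexes that hold genes silent or keep them active through cell divisions. A fixed list of 43 of them was followed through every single cell of the study, out of 23354 genes in the deposited matrix. The members were listed by name, with earlier results of these data known, and no threshold on their values was used. All 43 have a row, 39 under the listed symbol and 4 under an older one: Kmt2a as Mll1, Kmt2b as Wbp7, Kmt2c as Mll3 and Kmt2d as Mll2. They comprise 6 genes of the PRC2 core, 5 PRC2 accessory genes, 2 RING E3 ligases, 6 PCGF subunits, 4 CBX subunits, 5 PHC and SCM subunits, Rybp and Yaf2, 4 H3K4 methyltransferases, 4 scaffold subunits of those enzymes, 2 H3K27 demethylases and 3 H3K4 demethylases.

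The 278 libraries are single spermatogonia from untreated mice at postnatal day 6, all carrying an EGFP reporter of Id4 and all sorted as EGFP-positive before capture on a Fluidigm C1 chip. The labels rank the cells by the EGFP brightness of their image: 74 were in the brightest quartile (Q1), 70 in Q2, 74 in Q3 and 60 in the dimmest quartile (Q4). Preparations 1 to 5 gave 26, 62, 37, 75 and 78 cells, each preparation pooled from at least 2 pups, and whether these were separate litters is not given. Each preparation held cells of all 4 quartiles, with 4 cells at the fewest (Q4 of preparation 1). The quartiles are slices of 1 reporter-positive population, so EGFP-negative spermatogonia were not sampled, and a passage of the protocol numbers the dim quartile differently from the design text used here.

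As background, Polycomb repressive complex 2 (PRC2) methylates lysine 27 of histone H3 (H3K27), and Polycomb repressive complex 1 (PRC1) ubiquitinates histone H2A, reads H3K27 methylation through its CBX subunits and compacts chromatin. Trithorax group enzymes of the KMT2 family methylate lysine 4 of histone H3 (H3K4), which marks promoters and enhancers in use, and KDM enzymes remove these marks. In the male germ line PRC1 is known to keep somatic and meiotic genes in check in spermatogonia, and SCML2 is a germline-enriched PRC1 partner. Many of the subunits come as paralogs that share 1 position in a complex, so which paralog a cell transcribes bears on which form it can build. Protein was not measured here.

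Values are FPKM, fragments scaled to transcript length and to the mapped fragments of each library, so levels of genes that differ in length can be compared. A gene was counted as detected in a cell at an FPKM of at least 1. Differences are differences of the mean over cells of log2(FPKM + 1), which understate changes of low genes. The preparation is the unit of replication, and ± is the SD of 5 preparation values unless an SE is named. Estimated depth had a median of 625849 mapped fragments per cell (range 210260 to 1246433). Detected genes per cell averaged 6293 ± 931 in Q1 and 5732 ± 1305 in Q4, higher in Q1 in 5 of 5 preparations (exact permutation test p = 0.0625, the smallest that 5 preparations allow). Preparation 3 stood apart with a mean of 4437 genes detected in a cell (5875 to 7148 in the other preparations) at an estimated mean depth of 710180 fragments. A median of 11 of 11 germ cell markers was detected per cell (lowest cell 5). Of 9 Sertoli markers, 181 cells had none detected, while 3 cells (1 in Q2 and 2 in Q3, with 11 germ cell markers each) had at least 3. The highest of those cells had 6, and the highest summed Sertoli level of a cell was 969.9 FPKM. Of these markers, Amh and Fshr were at 0 in every cell and Rhox5, the most abundant, was detected in 14.4% of cells. Of 6 Leydig markers 5 were at 0 in every cell, and Star was detected in 19.8%.

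The level of a member depended strongly on which gene it was. In the plot of levels by preparation, Dpy30 stood highest at 397 ± 39.1 FPKM, followed by Rbbp7 at 308 ± 25.6 FPKM, Eed at 175 ± 35.7 FPKM, Pcgf5 at 147 ± 11.7 FPKM and Mtf2 at 108 ± 5.10 FPKM. At the other end were Phc3 at 1.07 ± 0.457 FPKM, Ring1 at 0.563 ± 0.559 FPKM and Cbx6 at 0.106 ± 0.101 FPKM. Of the 43 genes, 16 were detected in at least 90% of cells, 17 in 50 to 90% and 10 in fewer than 50%. In the middle of the order neighbours did not separate beyond their spread, for example Phc1 at 37.3 ± 8.71 FPKM, Phc2 at 37.2 ± 12.9 FPKM, Rnf2 at 37.6 ± 11.8 FPKM and Suz12 at 34.7 ± 9.0 FPKM.

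**Figure D1:**
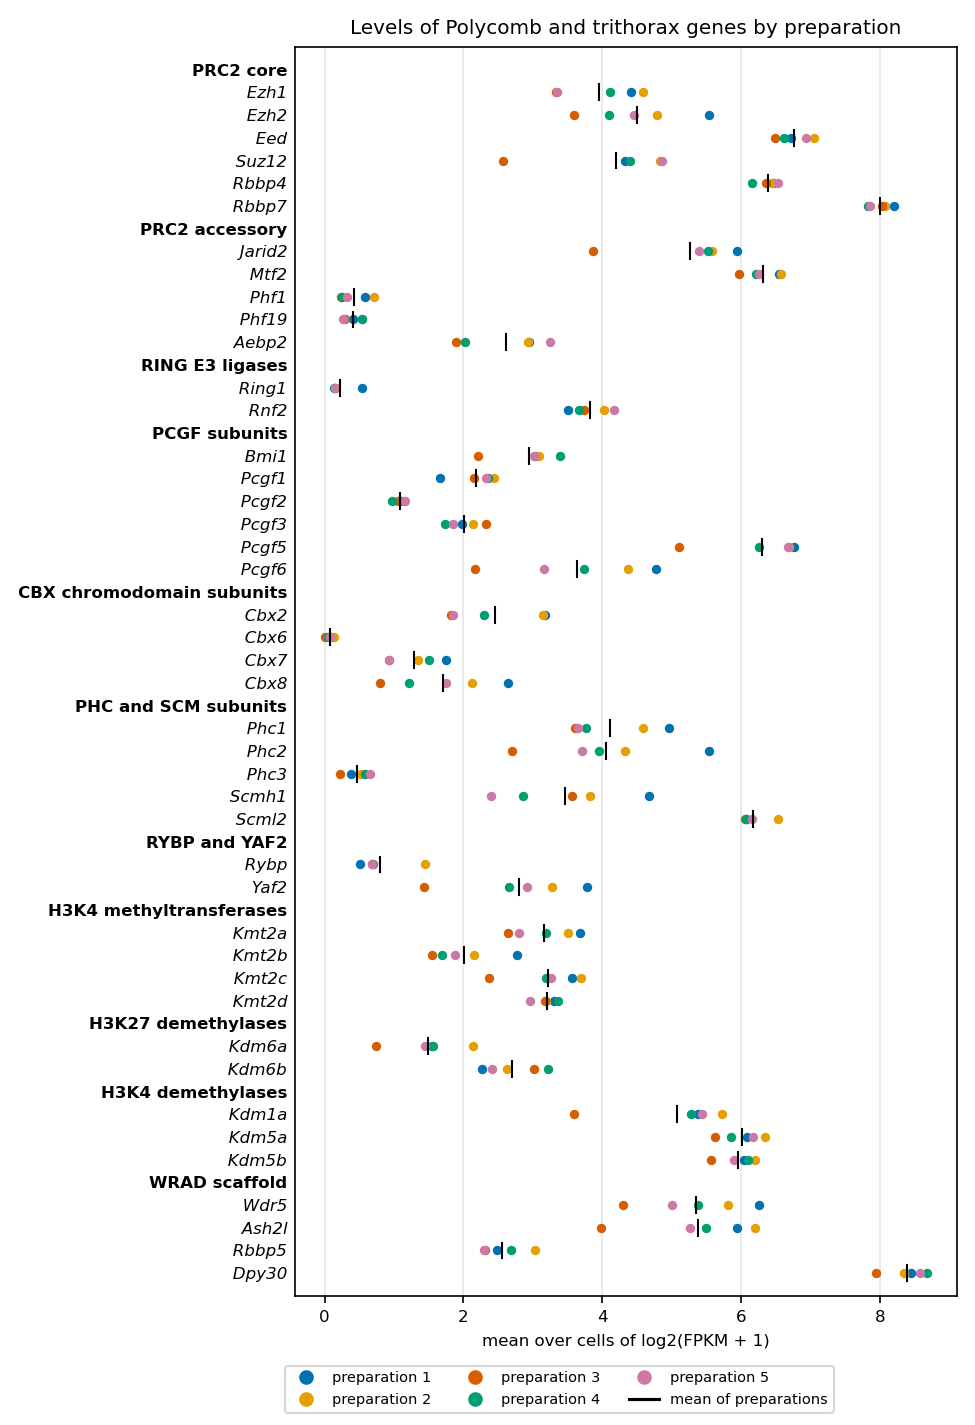
Mean over cells of log2(FPKM + 1) of the 43 genes (x axis) in each of the 5 preparations (points), grouped by role, with a black bar at the mean of the preparations. Dpy30 and Rbbp7 lie farthest right and Cbx6 and Ring1 farthest left, and preparation 3 is the lowest point for many genes.

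The PRC2 core was transcribed with all of its subunits, though not at equal levels. EED, which binds methylated H3K27 and stimulates the enzyme, had the highest level after the histone-binding protein RBBP7. Eed averaged 133, 162, 231, 167 and 181 FPKM in preparations 1 to 5 and was detected in 97.8% of cells. Suz12, the scaffold that holds the catalytic subunit, averaged 27.3, 41.7, 26, 32.3 and 46.4 FPKM in preparations 1 to 5 and was detected in 91.4% of cells. Suz12 was thus below Eed in every preparation. The X-linked Rbbp7 was detected in 100% of cells (315, 301, 346, 276 and 303 FPKM in preparations 1 to 5) and its autosomal paralog Rbbp4 in 99.6% (93, 97.0, 107, 84 and 109 FPKM). Rbbp7 was above Rbbp4 in 251 of 278 cells and in all 5 preparations, by 1.60 ± 0.16 on the log2 scale.

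The catalytic subunit of PRC2 is either EZH2, the form typical of dividing cells, or EZH1, the weaker methyltransferase that is typical of resting cells. Both genes were transcribed in these spermatogonia. Ezh2 averaged 68.3, 51.4, 50.2, 49.98 and 54.5 FPKM in preparations 1 to 5, and Ezh1 averaged 32.3, 39.5, 33.8, 33 and 25.3 FPKM. On mean FPKM Ezh2 was above Ezh1 in every preparation, with a mean of 54.9 ± 7.71 FPKM against 32.8 ± 5.08 FPKM. On the log2(FPKM + 1) scale, which weighs the number of cells with any transcript more, the 2 genes were closer: the difference was 0.54 ± 0.54, above 0 in 4 of 5 preparations (exact permutation test p = 0.125). Ezh2 was detected in 84.2% of cells and Ezh1 in 83.1%. Both were detected in 197 cells, Ezh2 alone in 37, Ezh1 alone in 34 and neither in 10.

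The promoters of this pair are shown because 1 of them holds a motif of the E2F factors, which act in the cell cycle. The windows span the RefSeq start on GRCm38.p6, most of each lying upstream, both on the minus strand, at chr6:47594981-47595280 for Ezh2 and chr11:101226414-101226713 for Ezh1. Capitals mark a match to the E2F motif TTGGCGC.
Ezh2: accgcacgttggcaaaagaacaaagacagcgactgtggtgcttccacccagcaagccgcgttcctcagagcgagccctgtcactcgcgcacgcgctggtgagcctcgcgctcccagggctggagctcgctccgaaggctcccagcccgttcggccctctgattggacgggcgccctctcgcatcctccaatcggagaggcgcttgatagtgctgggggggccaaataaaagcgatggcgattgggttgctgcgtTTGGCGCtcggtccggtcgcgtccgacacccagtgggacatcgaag
Ezh1: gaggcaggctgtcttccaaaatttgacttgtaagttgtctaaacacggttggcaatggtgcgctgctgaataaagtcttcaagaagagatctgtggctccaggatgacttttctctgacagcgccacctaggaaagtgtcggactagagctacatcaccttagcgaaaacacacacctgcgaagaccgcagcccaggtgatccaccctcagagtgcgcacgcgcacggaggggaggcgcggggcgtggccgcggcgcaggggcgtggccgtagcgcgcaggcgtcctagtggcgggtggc
The Ezh2 window holds 31 CpG dinucleotides at 64.3% GC, and the Ezh1 window holds 23 at 59.3% GC. TTGGCGC on either strand was found in the Ezh2 window and not in the Ezh1 window. Among 47 promoter windows of the 35 members in the RefSeq table it was in 5 (10.6%, belonging to Ezh2, Dpy30, Pcgf5 and Rbbp4), and among all 32851 windows in 2.45%. The other motifs searched were the ETS motif CCGGAAG, in 2.13% of member windows and 8.86% of all, the NRF1 motif GCGCATG, in 8.51% and 3.91%, and the YY1 motif AGATGGC, in 10.6% and 6.4%. The end of the E2F motif (GCGC) is also the start of the NRF1 motif, and a match is a description of the sequence only. Member windows had a median GC content of 64.3%, against 52.7% over all windows, and a median ratio of observed to expected CpG of 0.831, against 0.384.

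Among the accessory subunits that steer PRC2 to chromatin, 1 of the 3 Polycomb-like paralogs carried nearly all of the signal. Mtf2 averaged 103, 110, 115, 102 and 108 FPKM in preparations 1 to 5 and was detected in 98.2% of cells. Its paralog Phf1 averaged 1.26 ± 1.22 FPKM (14.4% of cells), and Phf19 averaged 2.01 ± 0.838 FPKM (11.9% of cells). Mtf2 was above Phf1 by 5.90 ± 0.09 and above Phf19 by 5.91 ± 0.22 on the log2 scale, in 5 of 5 preparations each. Mtf2 was the higher of the pair in 272 of 278 cells in both comparisons. The little Phf1 signal may be shared, since 1370 exonic bases of Phf1 overlap Cuta on the opposite strand and no strand setting is given in the sources used here.

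Jarid2 and Aebp2 define the other form of PRC2. Jarid2, which lacks demethylase activity and helps recruit PRC2, averaged 53.6 ± 14.5 FPKM in 97.1% of cells. Aebp2, a zinc finger subunit that stabilises the complex, averaged 16.9 ± 6.25 FPKM in 69.8% of cells. Jarid2 averaged 68.6, 60.1, 29.8, 56.5 and 53 FPKM in preparations 1 to 5, with preparation 3 lowest.

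PRC1 ubiquitinates H2A through 1 of 2 RING proteins, RNF2 (RING1B) or RING1 (RING1A). In these cells almost all of this transcript was Rnf2. Rnf2 averaged 24.6, 33.7, 53.4, 30.3 and 45.9 FPKM in preparations 1 to 5, and Ring1 averaged 1.55, 0.193, 0.341, 0.257 and 0.478 FPKM. The groups of 5 values do not overlap, and the log2 difference was 3.60 ± 0.41. Rnf2 was detected in 79.9% of cells and Ring1 in 7.55%. Rnf2 alone was detected in 206 cells, both in 16, Ring1 alone in 5 and neither in 51.

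The promoter windows of the 2 ligase genes are shown because both are CpG-rich although their levels lie so far apart. They are on the minus strand of GRCm38.p6 at chr1:151500942-151501241 for Rnf2 and chr17:34024631-34024930 for Ring1, and neither holds any of the 4 motifs, so no base is in capitals.
Rnf2: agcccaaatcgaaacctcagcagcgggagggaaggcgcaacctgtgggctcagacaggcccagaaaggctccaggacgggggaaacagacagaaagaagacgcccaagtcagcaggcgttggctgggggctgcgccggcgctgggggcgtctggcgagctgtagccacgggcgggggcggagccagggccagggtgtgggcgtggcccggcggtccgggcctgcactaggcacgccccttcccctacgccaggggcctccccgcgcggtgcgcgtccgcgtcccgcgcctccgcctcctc
Ring1: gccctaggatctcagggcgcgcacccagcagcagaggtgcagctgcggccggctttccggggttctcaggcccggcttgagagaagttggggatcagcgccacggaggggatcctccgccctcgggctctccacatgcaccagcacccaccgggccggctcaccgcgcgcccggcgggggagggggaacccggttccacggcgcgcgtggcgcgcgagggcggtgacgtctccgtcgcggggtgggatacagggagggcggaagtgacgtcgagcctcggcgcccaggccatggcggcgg
The Rnf2 window holds 30 CpG dinucleotides at 72.7% GC, and the Ring1 window holds 37 at 74% GC. The gene with the lower level has the richer window of the pair by these counts.

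PCGF subunits define the PRC1 variants: PCGF2 and BMI1 (PCGF4) belong to canonical PRC1 with CBX and PHC subunits, and PCGF1, PCGF3, PCGF5 and PCGF6 to the variant complexes with RYBP or YAF2. Pcgf5 was the leading member by a wide margin, at 143, 134, 146, 144 and 166 FPKM in preparations 1 to 5 and in 93.9% of cells. Its nearest paralog Pcgf3 averaged 7.49, 8.40, 18.8, 8.47 and 7.85 FPKM in 56.1% of cells, below Pcgf5 in 5 of 5 preparations by 4.29 ± 0.86 on the log2 scale. Pcgf6, of the PRC1.6 complex that represses germline genes in other cell types, averaged 40.4 ± 4.09 FPKM in 73.7% of cells. Pcgf1, of the complex with KDM2B, averaged 15.8 ± 6.14 FPKM in 52.5% of cells. Pcgf6 was above Pcgf1 in 5 of 5 preparations, by 1.45 ± 1.17, but in preparation 3 the difference was only 0.0036.

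The canonical pair also had an order. Bmi1, known for its role in stem cell maintenance, averaged 29.9 ± 5.97 FPKM in 65.1% of cells, against 3.94 ± 1.13 FPKM in 34.9% of cells for Pcgf2 (Mel18). The difference was 1.86 ± 0.45 on the log2 scale, above 0 in 5 of 5 preparations. Over the cells in which Bmi1 was detected its median was 28.6 FPKM, and its highest cell reached 377 FPKM. By the same median Pcgf5 had 135.5 FPKM, Pcgf6 36.1, Pcgf1 20.6, Pcgf3 9.21 and Pcgf2 5.43, so Bmi1 did not stand out.

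The CBX subunits, which read H3K27 methylation with a chromodomain, were all modest. Cbx8 averaged 14.1 ± 4.34 FPKM, Cbx2 12.6 ± 2.22 FPKM and Cbx7 7.13 ± 2.49 FPKM. Cbx6 was close to absent at 0.106 ± 0.101 FPKM, in 8 of 278 cells, and shares 563 exonic bases with Npcd on the same strand. Cbx2 was the most widely detected, in 62.2% of cells, against 39.9% for Cbx8 and 35.6% for Cbx7. Cbx2 was above Cbx7 by 1.17 ± 0.43 and above Cbx8 by 0.76 ± 0.42 on the log2 scale in 5 of 5 preparations each, although mean FPKM put Cbx8 above Cbx2. Cbx8 and Cbx7 did not keep 1 order (3 of 5 preparations, 0.41 ± 0.57).

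Of the PHC proteins, which polymerise canonical PRC1 through a SAM domain, Phc1 and Phc2 were transcribed alike and Phc3 little. Phc1 averaged 49.6, 41.6, 36.1, 27 and 32 FPKM in preparations 1 to 5 and Phc2 averaged 59.5, 33.5, 26.1, 33.4 and 33.5 FPKM. Their log2 difference was 0.07 ± 0.56, above 0 in 2 of 5 preparations. Phc3 was below Phc1 by 3.64 ± 0.66 and below Phc2 by 3.58 ± 1.00 in 5 of 5 preparations. The X-linked germline gene Scml2 averaged 72.3, 102, 101, 75.6 and 91 FPKM in preparations 1 to 5 and was detected in 99.3% of cells. Its relative Scmh1 averaged 29.6 ± 9.63 FPKM in 68.3% of cells, below Scml2 in 5 of 5 preparations by 2.72 ± 0.88.

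RYBP and YAF2 take 1 position in variant PRC1 and stimulate H2A ubiquitination. Here the order was in favour of Yaf2. Yaf2 averaged 26.5, 21.1, 9.11, 18 and 21.1 FPKM in preparations 1 to 5 (65.5% of cells), and Rybp 0.938, 5.26, 2.73, 2.96 and 2.0 FPKM (23.7% of cells). The difference Rybp minus Yaf2 was -2.0 ± 0.91 on the log2 scale, below 0 in 5 of 5 preparations.

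The 4 KMT2 methyltransferases lay within a narrow range. Kmt2c averaged 14.4 ± 2.52 FPKM, Kmt2a 12.4 ± 1.54 FPKM, Kmt2d 9.65 ± 0.924 FPKM and Kmt2b 6.44 ± 2.58 FPKM. KMT2A and KMT2B act at promoters with menin, and KMT2C and KMT2D place monomethylation at enhancers. Kmt2a was above Kmt2b in 5 of 5 preparations, by 1.16 ± 0.26 on the log2 scale, and Kmt2c and Kmt2d did not keep 1 order (0.02 ± 0.52). Kmt2d was the most evenly detected of the 4, in 97.8% of cells, against 64.4 to 88.5% for the others. Its longest transcript has 19823 bases, so at the median depth 1 fragment corresponds to 0.081 FPKM, and a level of 1 FPKM stands for more fragments than in a short gene.

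The scaffold that all KMT2 enzymes share (WDR5, RBBP5, ASH2L and DPY30, together WRAD) was not transcribed in equal amounts. Dpy30 averaged 374, 352, 382, 440.3 and 436 FPKM in preparations 1 to 5, Ash2l 85 ± 12.1 FPKM, Wdr5 75.4 ± 13.4 FPKM and Rbbp5 18.1 ± 3.33 FPKM. Dpy30 was detected in 99.3% of cells, Wdr5 in 92.1%, Ash2l in 91.4% and Rbbp5 in 62.6%. DPY30 is a small protein, and its longest transcript has 789 bases, the shortest of the members.

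The H3K27 demethylases gave the sharpest contrast between a mean and a cell. The X-linked Kdm6a (UTX) and the autosomal Kdm6b (JMJD3) had nearly the same mean, 7.18 ± 3.79 FPKM and 7.19 ± 2.39 FPKM. Kdm6b was nevertheless detected in 96.4% of cells and listed at 0 in none, whereas Kdm6a was detected in 45.7% of cells and listed at 0 in 45.7%. The highest cell had 213 FPKM of Kdm6a and 43.6 FPKM of Kdm6b. Their longest transcripts are of like length, 5935 bases for Kdm6a and 6654 bases for Kdm6b. On the log2 scale Kdm6a minus Kdm6b was -1.22 ± 0.73, below 0 in 5 of 5 preparations. The row of Kdm6b may include reads of the antisense gene Kdm6bos, with which it shares 286 exonic bases.

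The H3K4 demethylases were each detected in most cells. Kdm5b averaged 71.3, 81.5, 75.9, 80.4 and 74.2 FPKM in preparations 1 to 5 and Kdm5a averaged 69.95, 87.3, 60.2, 71.8 and 83 FPKM. These paralogs, which remove trimethylation of H3K4, were both detected in 277 of 278 cells, and Kdm5b was the higher in 141 cells and Kdm5a in 137. The log2 difference was -0.05 ± 0.19, above 0 in 1 of 5 preparations. Kdm1a (LSD1), the flavin-dependent enzyme for the lower methylation states, averaged 57 ± 17.0 FPKM in 94.2% of cells. It was less even, with preparation 3 lowest at 30.1 FPKM in 78.4% of its cells.

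Over the 24 paralog pairs compared, 18 kept 1 order in all 5 preparations on the log2 scale, and 6 did not. The mixed pairs on that scale were Ezh2 and Ezh1, Phf19 and Phf1, Cbx8 and Cbx7, Phc1 and Phc2, Kmt2c and Kmt2d, and Kdm5b and Kdm5a. Mean FPKM can give another result. By it Ezh2 was above Ezh1 in every preparation, while neither Kdm6a and Kdm6b nor Cbx2 and Cbx8 kept 1 order. With 5 preparations the exact permutation test cannot give less than p = 0.0625, and after adjustment over the 24 pairs by the Benjamini-Hochberg method no p was below 0.0833. The sizes in the plot of paralog differences therefore carry the comparison.

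**Figure D2:**
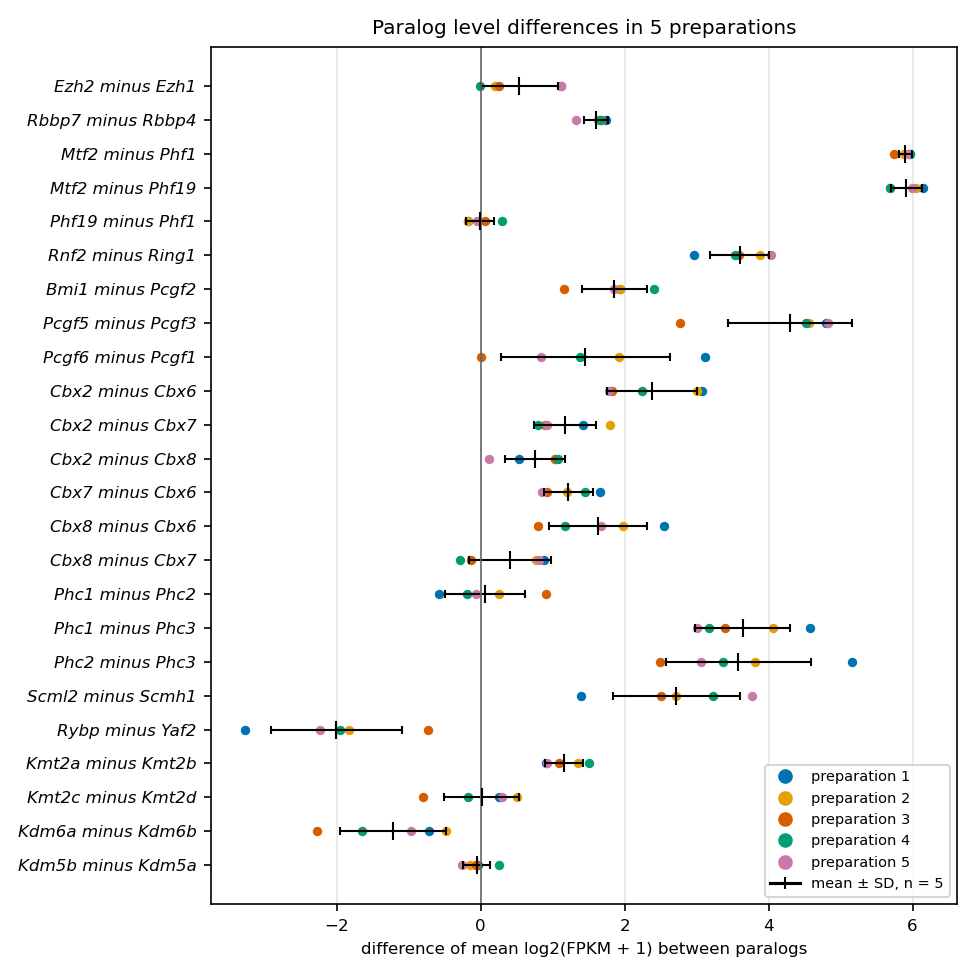
Difference of mean log2(FPKM + 1) between the paralogs of 24 pairs (first minus second, x axis), 1 point per preparation with the mean ± SD of 5 preparations. Mtf2 lies 5.90 above Phf1 and Rnf2 3.60 above Ring1, while Yaf2 and Kdm6b lie above Rybp and Kdm6a in every preparation.

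Within single cells paralogs were detected side by side about as often as their separate frequencies in a preparation give. Ezh2 and Ezh1 were both detected in 197 cells, and 196 would be if detection of each were independent within preparations. For Phc1 and Phc2 the counts were 190 and 187, for Kmt2a and Kmt2b 162 and 160.0, and for Rybp and Yaf2 45 and 44.4. The widest gap was for Cbx2 and Cbx8, at 81 cells against 73, followed by Bmi1 and Pcgf2 at 70 against 64.2. Correlations of log2(FPKM + 1) between paralogs across the 278 cells, taken within preparations, ran from -0.09 to 0.13 over the 24 pairs. The cells share chips and depth, and detection is sparse, so these counts and correlations describe the libraries.

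**Figure D3:**
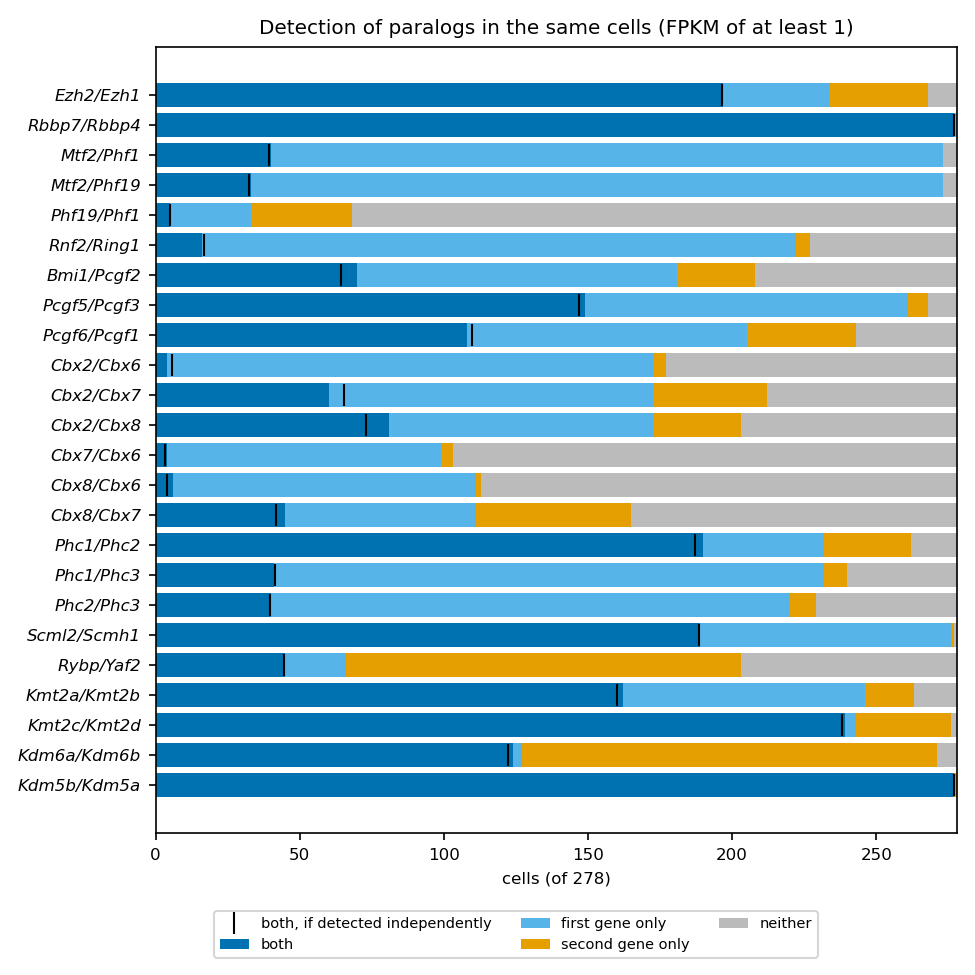
Number of the 278 cells in which both genes, the first only, the second only or neither of a paralog pair was detected at an FPKM of at least 1 (x axis), with a black tick at the number for both if detection were independent within preparations. The tick sits near the end of the bar for both genes in the pairs shown, for example at 44.4 for 45 cells with Rybp and Yaf2.

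A cell had 30.1 ± 3.5 of the 43 genes detected, with 14 in the lowest cell and 39 in the highest. The complete catalytic core, Ezh2 with Eed and Suz12, was detected in 76.3 ± 22.1% of cells, and by preparation in 96.2%, 91.9%, 40.5%, 72% and 80.8%. Ezh1 or Ezh2 was detected in 86.5 to 100% of cells of a preparation, and Rnf2 or Ring1 in 67.6 to 88.7%. The number of members in a cell moved with the number of all detected genes, with a correlation across cells within preparations of 0.23 to 0.90 (median 0.73 of 5 preparations, 278 cells). A missing transcript at this depth is therefore not shown to be absent from the cell.

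The comparison of bright with dim cells asks whether this machinery differs along the reporter gradient, since Id4-EGFP brightness has been used to grade spermatogonia by stem cell capacity. Of the 43 members, 41 passed the filter (detection in 10% or more of the cells) and were tested together with the other genes, 10452 in all. Ring1 and Cbx6 did not pass. No member was called at an adjusted p below 0.05 in limma with Benjamini-Hochberg adjustment (adjusted p 0.242 to 0.986), where 0.0765% of all genes were called. At an unadjusted p below 0.05, 6 of 41 members (14.6%) were higher in Q1 and 0 were lower, against 10.4% and 1.03% of all genes. The count of members lies near that background.

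Differences were above 0 for 33 of 41 members (80.5%), against 69.5% of all genes, and the median was 0.28 for the members and 0.17 for all genes. The 6 members with the smallest p were Rbbp5, Yaf2, Ezh1, Phc2, Pcgf5 and Kdm6a. The same 6 had an unadjusted p below 0.05 in the linear trend over the quartiles, where 11% of all genes did so in that direction and the lowest adjusted p of a member was 0.189 (limma). Detected genes moved the same way as these differences. With detected genes as a covariate 19 of 41 members were above 0, against 48.7% of all genes. Only Yaf2 kept an unadjusted p below 0.05 (limma), where 5.39% of all genes had one. The estimates of the others were then 0.99 for Ezh1, 1.00 for Rbbp5, 0.915 for Phc2, 0.98 for Kdm6a and 0.54 for Pcgf5. Summed FPKM of 20 S phase genes was also higher in Q1, at 2278 ± 277 against 1905 ± 292 in Q4, in 5 of 5 preparations, and summed Sertoli markers (7 of 9 above 0 in some cell) were at 28.4 ± 19.5 FPKM in Q1 and 11.7 ± 8.56 in Q4, higher in 4 of 5 preparations. Summed FPKM of 16 G2/M genes was 1232 ± 163 in Q1 and 1248 ± 122 in Q4, higher in Q1 in 2 of 5 preparations. Low sums were also measured for peritubular myoid markers (4.66 ± 3.78 FPKM in Q1 and 0.203 ± 0.228 in Q4) and red blood cell markers (2.65 ± 3.5 and 0.0800 ± 0.113 FPKM), both higher in Q1 in 4 of 5 preparations, and for endothelial markers (2.46 ± 1.35 and 8.10 ± 9.58 FPKM), higher in Q1 in 2 of 5. The part of any of these in the members' differences was not tested.

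Ezh1 averaged 37.3, 45.2, 33.6, 34.6 and 46 FPKM in Q1 of preparations 1 to 5, and 33, 31, 58.7, 33.3 and 10.6 FPKM in Q4. The groups overlap, and preparation 3 had the higher mean FPKM in Q4. Detection of Ezh1 was 91.4% of cells in Q1 and 72.4% in Q4 (means of preparations). On the log2 scale the difference was 1.16 ± 0.39 (SE), above 0 in 4 of 5 preparations, with an adjusted p of 0.245 (limma). Without preparation 5 it was 0.63.

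Rbbp5, a WRAD subunit that contacts the KMT2 catalytic domain, averaged 22, 20.7, 15.5, 26.7 and 18.8 FPKM in Q1 of preparations 1 to 5, and 19.5, 9.37, 18.8, 31.4 and 3.55 FPKM in Q4. The Q4 values spread on both sides of the Q1 values. The log2 difference was 1.19 ± 0.40 (SE), above 0 in 4 of 5 preparations, and the lowest adjusted p of the members belonged to it (0.242, limma). Detection was 73.3% in Q1 and 54.1% in Q4. Without preparation 5 the difference was 0.80.

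Yaf2 averaged 23.6, 37.0, 11.3, 20.1 and 15.8 FPKM in Q1 of preparations 1 to 5, and 9.93, 12.8, 3.5, 8.71 and 13.3 FPKM in Q4. It was higher in Q1 in each preparation on both scales, and only preparation 3 of Q1 fell among the Q4 values. The log2 difference was 1.09 ± 0.36 (SE), above 0 in 5 of 5 preparations, with an adjusted p of 0.242 (limma). Yaf2 was the only one of the 6 with an unadjusted p below 0.05 both with detected genes as a covariate (difference 1.47) and with the log2 of the mean FPKM in place of the mean of logs (0.98). Without preparation 2 the difference was 0.71.

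Phc2 averaged 44.7, 37.3, 23.6, 31.1 and 58.7 FPKM in Q1 of preparations 1 to 5, and 105, 33.3, 23.2, 35.7 and 27.7 FPKM in Q4. Mean FPKM was lower in Q1, at 39.1 ± 13.5 against 45 ± 34 in Q4, with preparation 1 at 105 FPKM from 4 Q4 cells. The mean of logs went the other way, by 0.92 ± 0.31 (SE), above 0 in 4 of 5 preparations (adjusted p 0.245, limma), and detection was 85.3% in Q1 and 74% in Q4. Without preparation 5 the difference was 0.51.

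Pcgf5 averaged 166, 151, 135, 155 and 186 FPKM in Q1 of preparations 1 to 5, and 103, 131, 117, 137 and 181 FPKM in Q4. It was higher in Q1 in each preparation, with overlapping groups. The log2 difference was 0.89 ± 0.35 (SE, adjusted p 0.312, limma), and with the log2 of the mean FPKM it was 0.17. Preparation 3 had the widest gap, 2.65, with Pcgf5 detected in 90.9% of its Q1 cells and 42.9% of its Q4 cells.

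Kdm6a averaged 6.52, 12.7, 1.24, 8.26 and 9.72 FPKM in Q1 of preparations 1 to 5, and 0.138, 6.42, 0.0, 2.69 and 26.1 FPKM in Q4. It was higher in Q1 in 4 of 5 preparations on mean FPKM and in 5 of 5 on the log2 scale. Detection was 53.4% in Q1 and 23.9% in Q4. The log2 difference was 0.71 ± 0.30 (SE, adjusted p 0.348, limma). Preparation 1 had the widest gap, 2.29, with Kdm6a detected in 0.0% of its 4 Q4 cells. Without preparation 1 the difference was 0.57, and with the log2 of the mean FPKM it was 0.44.

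**Figure D4:**
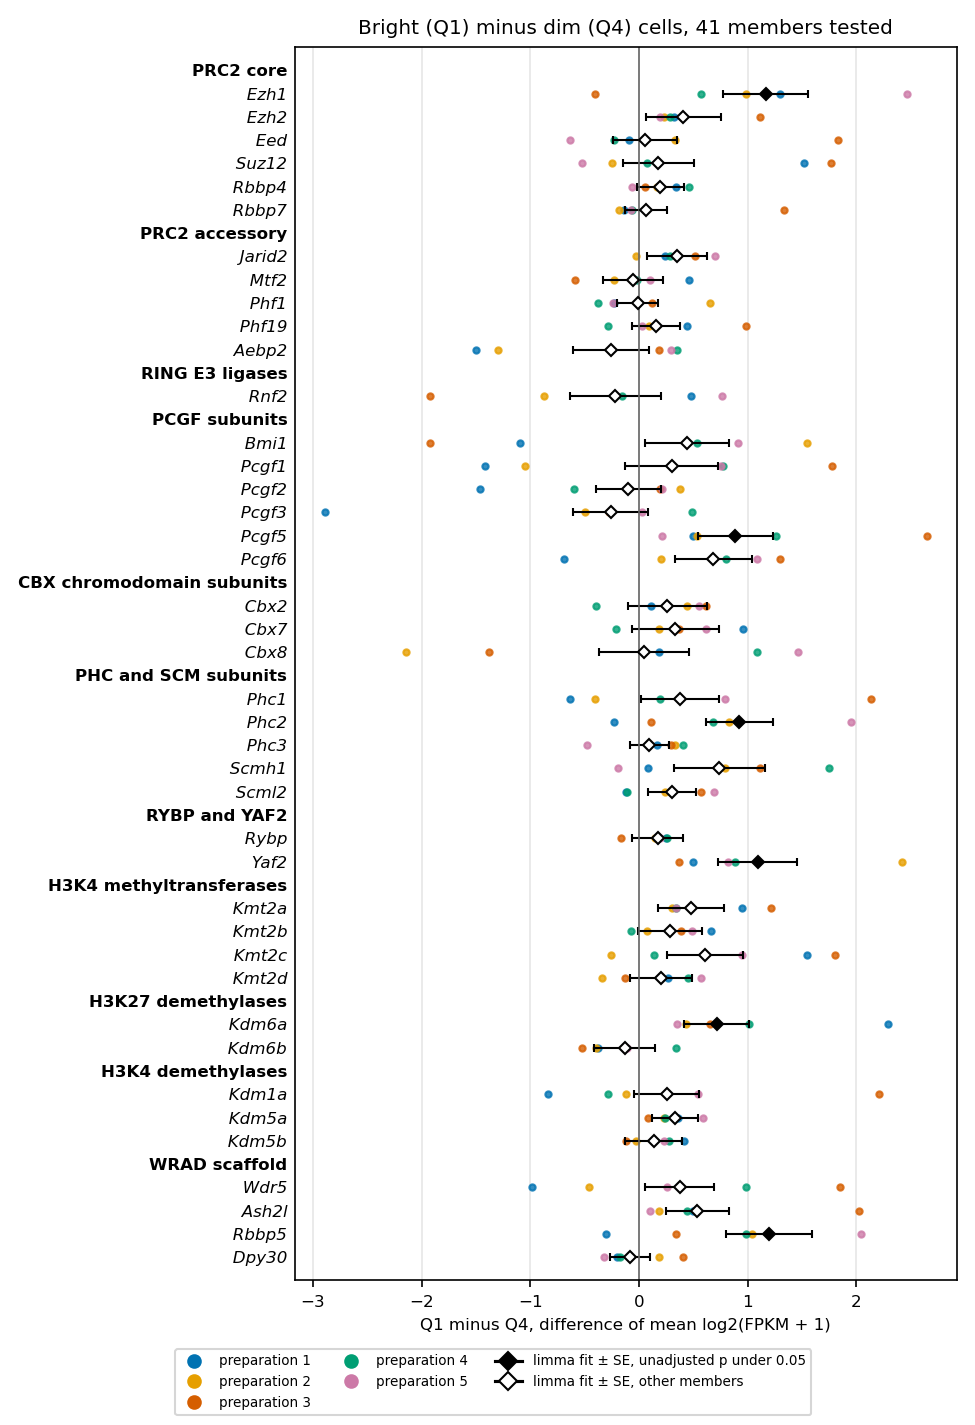
Q1 minus Q4 difference of mean log2(FPKM + 1) (x axis) for the 41 members tested, 1 point per preparation, with the limma estimate ± SE as a diamond, filled for the 6 members with an unadjusted p below 0.05. Of the 41 diamonds, 33 lie above 0 and 8 below.

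The remaining 35 members had differences of -0.26 to 0.74 on the log2 scale, 27 above 0 and 8 below. In the PRC2 core, Ezh2 averaged 92.8, 55.7, 41.3, 42.1 and 44.3 FPKM in Q1 of preparations 1 to 5, and 75.7, 55.6, 75.7, 63 and 42.2 FPKM in Q4. Its log2 difference was 0.41 ± 0.35 (SE), above 0 in 5 of 5 preparations, but 0.19 to 0.32 in all except preparation 3, and mean FPKM was lower in Q1 (55.3 ± 21.8) than in Q4 (62.4 ± 14.2). Rbbp7 averaged 306 ± 40.8 FPKM in Q1 and 286 ± 60.5 FPKM in Q4, with a log2 difference of 0.07 ± 0.19 (SE). The differences of Eed, Suz12 and Rbbp4 were 0.06, 0.18 and 0.20. Of the 41 tested members, 7 were higher in Q1 in 5 of 5 preparations on the log2 scale: Ezh2, Pcgf5, Yaf2, Kmt2a, Kdm6a, Kdm5a and Ash2l. That is a larger share than the 8.42% of all genes that were. Detected genes per cell were also higher in Q1 in 5 of 5 preparations, and their part in this count was not tested. None of the 41 was higher in Q4 in every preparation. The share of all genes higher in Q4 in every preparation was not counted, so that count has no background to be read against.

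Elsewhere the members with the highest level or the smallest p of their role had no unadjusted p below 0.05, and each value in parentheses is a log2 difference ± SE. Mtf2 averaged 112 ± 11.9 FPKM in Q1 and 122 ± 38 FPKM in Q4 (-0.06 ± 0.27), and Jarid2 averaged 54.9 ± 21.6 and 52.2 ± 13.7 FPKM (0.35 ± 0.28). Rnf2 averaged 35.1 ± 9.88 FPKM in Q1 and 54.2 ± 38.6 FPKM in Q4 (-0.22 ± 0.42), with 121 FPKM in the 7 Q4 cells of preparation 3. Cbx8 averaged 12 ± 10.1 FPKM in Q1 and 17.3 ± 11.1 FPKM in Q4 (0.05 ± 0.41), and Cbx7 averaged 8.55 ± 5.92 and 7.05 ± 7.10 FPKM (0.33 ± 0.40). Scml2 averaged 87.1 ± 17.8 FPKM in Q1 and 83 ± 12.6 FPKM in Q4 (0.30 ± 0.22). Kmt2c averaged 15.9 ± 3.97 FPKM in Q1 and 11.4 ± 5.56 FPKM in Q4 (0.61 ± 0.35, adjusted p 0.535, limma), above 0 in 4 of 5 preparations. Kdm6b averaged 6.58 ± 3.04 FPKM in Q1 and 8.33 ± 2.61 FPKM in Q4 (-0.13 ± 0.28). Kdm5b averaged 72.9 ± 17.8 FPKM in Q1 and 72.4 ± 16.3 FPKM in Q4 (0.13 ± 0.26), and Kdm5a averaged 75 ± 17.4 and 67.7 ± 13.1 FPKM (0.33 ± 0.21). Dpy30 averaged 384 ± 53.7 FPKM in Q1 and 416 ± 91.4 FPKM in Q4 (-0.08 ± 0.19).

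A test for any difference among the 4 quartiles called no gene of the 10452. An unadjusted p below 0.05 was reached by 6 of 41 members, Rbbp5, Yaf2, Ezh1, Phc2, Ezh2 and Pcgf6, against 8.38% of all genes, and the lowest adjusted p of a member was 0.522 (limma). For Ezh2 (unadjusted p 0.017, adjusted p 0.522, limma) the mean log2(FPKM + 1) was 4.97 ± 0.97 in Q1 and 4.87 ± 0.43 in Q2, 3.71 ± 0.84 in Q3 and 4.54 ± 1.11 in Q4, and it was detected in 93.1%, 90.6%, 76% and 80.6% of cells in that order. For Pcgf6 (unadjusted p 0.0359, adjusted p 0.579, limma) it was 3.86 ± 0.99 in Q1 and 3.10 ± 1.31 in Q2, while Q3 had 4.12 ± 0.75 and Q4 had 3.32 ± 1.72.

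**Figure D5:**
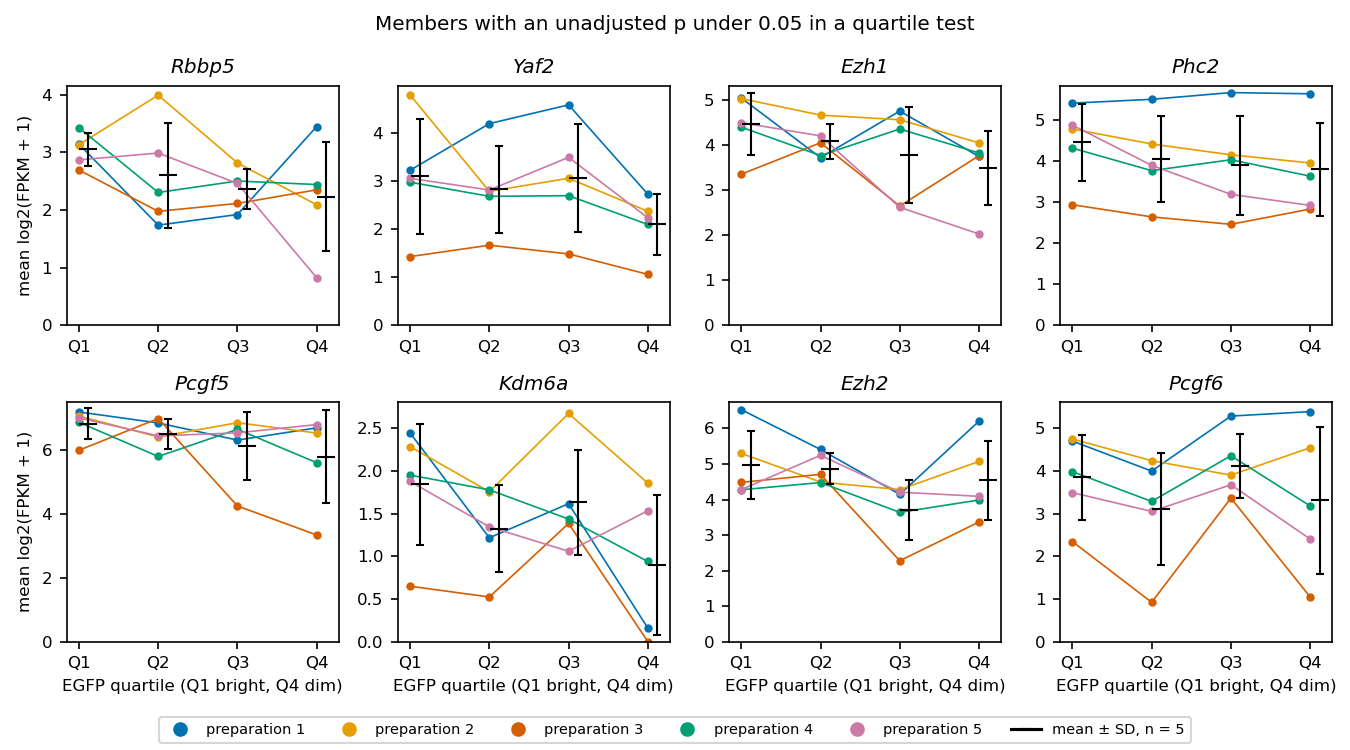
Mean log2(FPKM + 1) over cells (y axis) by EGFP quartile (x axis, Q1 bright to Q4 dim) for the 8 members with an unadjusted p below 0.05 in a quartile test, 1 line per preparation, with the mean ± SD of the 5 preparations beside it. Yaf2 is lowest in Q4 in each preparation, while the mean of Ezh2 is lowest in Q3, at 3.71.

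The balance of paralogs between bright and dim cells moved 1 way in all 5 preparations for 3 of the 24 pairs. Pcgf5 was above Pcgf3 by 5.07 in Q1 and by 3.41 in Q4 on the log2 scale, a change of 1.66 ± 1.41. Rybp minus Yaf2 was -2.30 in Q1 and -1.44 in Q4, a change of -0.86 ± 0.80. Kdm6a minus Kdm6b was -0.78 in Q1 and -1.94 in Q4, a change of 1.16 ± 0.88. Each had p = 0.0625 in the exact permutation test, the smallest possible, and 0.5 after adjustment over 24 pairs. Ezh2 minus Ezh1 was 0.50 in Q1 and 1.06 in Q4, a change of -0.55 ± 1.38 that was above 0 in 1 of 5 preparations (p = 0.4375, exact permutation test).

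More members differed between preparations than between quartiles. Between preparations 15 of 41 members (36.6%) were called at an adjusted p below 0.05 (limma), where 32.6% of all genes were called, so the share of members lies near the background. They were Suz12, Jarid2, Phc2, Pcgf6, Ash2l, Kdm1a, Yaf2, Wdr5, Scmh1, Pcgf5, Aebp2, Cbx2, Ezh2, Kdm6a and Rybp. Of these 15, 13 were lowest in preparation 3, as were 80.8% of all genes called between preparations. Of the 41 tested, 29 were lowest there, as were 68.7% of all genes tested, so both shares lie near the background. Suz12 had a mean log2(FPKM + 1) of 2.56 in preparation 3 and 4.32 to 4.86 in the others, and was detected in 59.5% of its cells, against 95.2 to 97.4%. On mean FPKM the gap was smaller, 26 FPKM in preparation 3 and 27.3 to 46.4 FPKM elsewhere. With detected genes as a covariate no member was called between preparations, and without preparation 3, 8 were.

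Partners of the same complexes that are not members were transcribed as well. Of 22 tested PRC1 and PRC2 partners 0 were called and 2 had an unadjusted p below 0.05 (limma), both higher in Q1 (log2 differences here with ± SE). They were Kdm2b, which brings PCGF1 complexes to CpG islands (22.7 ± 9.02 FPKM in Q1 and 13.5 ± 6.32 FPKM in Q4, 1.09 ± 0.39), and Auts2, a PCGF3 and PCGF5 partner (15.4 ± 4.21 and 6.55 ± 1.95 FPKM, 0.81 ± 0.38). Of 9 tested genes of the H2A deubiquitinase complex PR-DUB, Foxk2 and its catalytic subunit Bap1 had such a p, with differences of 0.48 ± 0.19 and 1.09 ± 0.46. In a list of 15 genes that joins other COMPASS genes with demethylases the number was 3, led by Kdm5d and Ncoa6 (0.76 ± 0.33). Kdm5d is a demethylase of the Kdm5 family (8.76 ± 2.69 FPKM in Q1 and 5.12 ± 4.52 FPKM in Q4, 0.86 ± 0.36). Of 18 SWI/SNF genes the number was 1, Brd7 (0.98 ± 0.37). All of these were higher in Q1 and none was called, where 10.4% of all genes had such a p and were higher in Q1 and 1.03% were lower. The direction is thus that of most genes with such a p.

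Hox genes, the classical targets of Polycomb silencing, were little transcribed. Of 39 measured, 17 were at 0 in every cell and 33 were detected in fewer than 5% of cells. Of all 23354 genes, 6247 were at 0 in every cell and 10452 passed the filter. Whether Polycomb silencing has a part in the Hox counts was not tested. The highest was Hoxb7 at 6.10 FPKM, in 21.6% of cells. A cell had a median of 0 Hox genes detected and at most 7. Hoxb5 and Hoxb7 passed the filter, with log2 differences between Q1 and Q4 of 0.34 ± 0.18 and 0.12 ± 0.28 (SE), neither called.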

How the data were processed

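Single-cell libraries of 278 spermatogonia were used, grouped by the EGFP quartile in the labels, with the preparation number taken from the sample titles. The values deposited by the authors are FPKM; the unit was read from the quantifier's name and the values, since the header does not state it. FastQC, TopHat, Cufflinks and Picard and the build mm10 (GRCm38) are named per the submitters' processing notes; the sources used here give no versions, annotation or strand setting. Near-identical copies, and the 14 members with exons overlapping an opposite-strand gene and 1 on the same strand (GENCODE M21), may share reads. Mll2 was read as Kmt2d because Wbp7 has its own row. Of the house-keeping genes examined, Gapdh was at 0 in 1 cell.

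Cells were not treated as replicates. Means over cells of log2(FPKM + 1) for the 20 combinations of preparation and quartile were fitted with limma 3.58.1 (R 4.3.3, data.table in version 1.17.8; trend = TRUE, weights by cells, preparation as a block, 12 residual degrees of freedom) over the 10452 genes detected (FPKM of 1 or more) in 10% or more of the cells. Tests were two-sided with Benjamini-Hochberg adjustment over all genes and a threshold of 0.05. Preparation numbers pair the means because all quartiles of a preparation come from 1 suspension: over 30 such pairs the deviations had a median correlation of 0.19 (lowest 0.076), against -0.067 otherwise. Whether preparations are independent animals is not stated, so p-values may measure technical spread. Paralog differences were tested by exact sign-flip permutation. Depth was estimated from the smallest steps of low FPKM values of 2110 genes with 1 transcript. The fit was tested on simulated data. The highest correlation between cells was 0.808, so no cell was a duplicate.

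Promoters are RefSeq windows of GRCm38.p6, found for 35 members, and motifs were searched on both strands. Python 3.11.15, pandas 2.3.3 and numpy 2.4.6 were used. The members and gene lists were chosen with earlier results of these data known. Members were given with quartile values where an unadjusted p was below 0.05, or where they had the highest level or smallest p of their role. Alternatives tried were no block, a pseudocount of 0.1, other filters, scaling to a common 75th percentile, detected genes as a covariate, the log of the mean, no weights, a detection limit of 5 and each preparation left out.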

Additional observations from a re-analysis of the deposited data

Results flagged for a closer look

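Of 132 groups of 5 preparation values, 19 had 1 preparation far from the other 4 by Dixon's criterion, of which chance flags about 1 in 20, and preparation 3 was the one in 9 of them.

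In preparation 3 the Q1 minus Q4 difference (log2 scale) was 1.11 for Ezh2, against 0.19 to 0.32 in the others, 1.34 for Rbbp7 (others -0.18 to -0.06), 2.03 for Ash2l (0.10 to 0.50) and -0.17 for Rybp (0.15 to 0.26). Its mean Pcgf3 was 18.8 FPKM (7.49 to 8.47), and Pcgf5 was above Pcgf3 by 2.77 there and by 4.52 to 4.82 elsewhere. The change of a paralog difference between Q1 and Q4 in preparation 3 was 1.29 for Rbbp7 and Rbbp4, -2.11 for Bmi1 and Pcgf2, and 2.03 for Phc1 and Phc2, each outside the others. Preparation 3 had 4437 detected genes per cell and 7 cells in Q4; the part of either in these values was not tested.

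Preparation 1 had the highest mean of Ezh2 (68.3 FPKM), Phc2 (59.5 FPKM), Ring1 (1.55 FPKM) and Kmt2b (10.9 FPKM). Preparation 2 had 3.41 FPKM of Phf1, and its Q1 minus Q4 difference of Yaf2 was 2.42 (0.37 to 0.88 in the others), and that of Rybp minus Yaf2 was -2.27 (-0.63 to -0.25). In preparation 4 the change of Cbx2 minus Cbx6 was -0.41 (0.48 to 0.75). In preparation 5 the difference of Phc3 was -0.48 (0.16 to 0.40) and Rbbp7 was above Rbbp4 by 1.32 (1.63 to 1.74).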

How the results depend on the processing

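No member was called between Q1 and Q4 under any of the 13 alternatives. Without the replicate block, 2 members (Ezh1 and Rbbp5) had an unadjusted p below 0.05 in limma in Q1 against Q4, and 2 in the trend, against 6 each with it, and 0 genes were called in both tests. The numbers 12 and 11 replaced those 6 at a common 75th percentile, 1 (Yaf2) and 2 with detected genes as a covariate, and 1 (Yaf2) and 2 with the log of the mean. The share of all genes with such a p in Q1 against Q4 moved the same way. It was 11.4% with the settings reported and 5.66% without the block. At the common percentile it was 16.9%, with the covariate 5.39% and with the log of the mean 8.26%. Genes called in Q1 against Q4 were 8 with the settings reported and 44 at the common percentile. They were 0 with the covariate, the log of the mean, no filter or no weights, and 0 to 11 when a preparation was left out. Genes called in the trend were 14, with 64 at the common percentile, 0 in those same alternatives, and 0 to 9 when a preparation was left out.

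The median of all genes was 0.17, -0.02 with the covariate and 0.26 at the common percentile. Between preparations, 6396 genes and 29 members were called at the common percentile, 123 and 0 with the covariate, and 470 and 1 with the log of the mean, against 3412 and 15. When a preparation was left out these were 1457 to 3636 genes and 8 to 15 members. At a detection limit of 5 FPKM a cell had 26 members detected. Pairs changed 1 way in every preparation numbered 3, and 3 to 8 when a preparation was left out (8 without preparation 3).

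Values that changed sign were Ezh2 between Q1 and Q4, -0.62 with the covariate and -0.18 with the log of the mean; Kmt2c, -0.091 with the covariate; and Rnf2, -0.66 to 0.0070 when a preparation was left out (0.0017 without preparation 2 and 0.0070 without preparation 3). Among paralogs, the log of the mean gave -0.11 for Cbx2 minus Cbx8, 0.052 for Kdm5b minus Kdm5a and 0.49 for Phf19 minus Phf1. When a preparation was left out, Phf19 minus Phf1 was -0.085 to 0.033, Kmt2c minus Kmt2d was -0.11 to 0.22 (and -0.18 at a pseudocount of 0.1), and Phc1 minus Phc2 was -0.14 to 0.23, below 0 without preparation 3. The cause was not tested. Depth limits genes of low FPKM, and the FPKM of 1 fragment depends on transcript length. At the median depth 1 fragment stands for 0.081 FPKM of Kmt2d and 2.03 FPKM of Dpy30. The detection limit of 1 FPKM thus asks for more fragments in long genes, and in the shortest members 1 fragment can decide detection.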
